A study of Homo sapiens with 20 samples.

Results

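The genes described here encode the machinery that starts transcription by RNA polymerase II: the Mediator complex with its kinase module, RNA polymerase II itself, TFIID and the general transcription factors TFIIA, TFIIB, TFIIE, TFIIF and the core of TFIIH. They were chosen by gene symbol alone, as the protein-coding genes of GENCODE release 44 named MED, POLR2, TAF or GTF2 (letters A, B, E, F and H) with a number or letter, plus TBP, CDK8, CDK19 and CCNC. The rule gave 72 genes, of which 71 were among the 19617 genes matched in the deposited files. POLR2A, which encodes the catalytic subunit of RNA polymerase II, was not analysed here. The 72 genes comprised 26 of the Mediator core, 7 of its kinase module, 12 of RNA polymerase II, 14 of TFIID, 12 of the other general factors and TAF15, an RNA-binding protein of the FET family that shares the TAF name.

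The cells were MM1.S, an established human multiple myeloma line labelled as wild type, treated with 10 nM dCBP-30 or with DMSO as vehicle for 2, 6 or 24 h. dCBP-30 is a bifunctional degrader that recruits the acetyltransferases CBP and p300 to the ubiquitin ligase receptor cereblon. In SLAM-seq, cells take up the uridine analogue 4-thiouridine (4sU), here for the last 1 h before harvest, and RNA made in that time is read after alkylation with T-to-C conversions. Each of the 6 labelled groups had 3 libraries with its own DMSO group at each time, all from 1 cell line, and 2 further libraries received no 4sU. For every 3′ UTR the files hold the number of reads and the number of reads with a conversion, called total reads and T>C reads below. T>C reads come mostly from RNA made during the labelling hour, whereas total reads come from all RNA present at harvest.

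Mediator is a large coactivator that bridges enhancer-bound transcription factors to RNA polymerase II at promoters. Its head and middle modules contact the polymerase, the tail receives many activators, MED14 runs through the modules as a scaffold, and a dissociable kinase module (CDK8 or CDK19 with cyclin C, MED12 and MED13 or their paralogs) regulates the core complex. TFIID, built from TBP and the TAF proteins, recognises core promoters, and TFIIA, TFIIB, TFIIE, TFIIF and TFIIH complete the preinitiation complex. CBP and p300 acetylate histones and factors at enhancers and promoters and so act at the same step of gene regulation.

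The 18 labelled libraries held 12440700 to 18729086 reads and the 2 libraries without 4sU 14860856 and 17118183 reads. All 8 plasma cell markers examined lay between 99.1 and 1782 RPM (reads per 1000000 reads) in the DMSO libraries, and of the markers of B cells, T cells and myeloid cells only CD3E exceeded 1.45 RPM, at 2.08 to 7.19. T>C reads made up 6.08%, 6.38% and 8.31% of reads with DMSO at 2, 6 and 24 h (means of 3 libraries), 5.54%, 4.98% and 6.38% with dCBP-30, and 0.801% without 4sU. At 24 h the number of conversions per T>C read was 1.47 ± 0.0432 with dCBP-30 and 2.48 ± 0.0253 with DMSO (mean ± SD, n = 3), and over the genes of the machinery it was 1.49 ± 0.0348 and 2.49 ± 0.128. At 2 h these values over the machinery were 2.13 ± 0.0924 and 2.15 ± 0.0269, and at 6 h 2.24 ± 0.0819 and 2.11 ± 0.0720. The part of the lower conversion number in the T>C results at 24 h was not tested. In such bulk libraries, fewer cells of a kind and less RNA per cell cannot be told apart.

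All values per library are given in RPM, with each library's total reads scaled by TMM (trimmed mean of M values) factors. They are levels of one gene across libraries and are not compared between genes. The TMM factors averaged 1.30 for dCBP-30 and 0.908 for DMSO at 24 h, so the choice of scaling bears on directions. With each library scaled instead by its own T>C reads, the median log2 fold change of T>C reads over all genes tested moved from -0.27 to 0.04 at 6 h and from -0.69 to -0.04 at 24 h. Without the TMM factors, the median log2 fold change of total reads over all genes moved from 0.02 to 0.35 at 6 h and from 0.05 to 0.58 at 24 h. Counts of genes called under these other scalings are given below without the share over all genes. They do not set the machinery apart from other genes. The scaling by total reads sets a gene's labelled RNA against all RNA, and the scaling by T>C reads sets it against other labelled RNA. Fold changes are given on the log2 scale as dCBP-30 over DMSO at the same time, with the standard error after ±, and genes were called at an adjusted p under 0.05.

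In the 3 DMSO libraries at 2 h, the median share of T>C reads was 10.2% over 68 genes of the machinery and 8.72% over 11213 genes. By complex it was 19.4% for the kinase module, 11.3% for the Mediator core, 10.98% for the general factors, 10.3% for TFIID and 3.27% for RNA polymerase II. These shares were not corrected for how many T positions a read covered. Without 4sU the median over the machinery was 0.543%, and 9 of the 68 genes had no T>C read there. GTF2A2, the small subunit of TFIIA, stood apart: 32.6% of its reads were T>C reads without 4sU, against 34.3% with DMSO at 2 h, so its T>C reads were not a measure of labelled RNA. TAF7 had 7.47%, CDK8 5.80% and MED30 4.49% without 4sU, well below their 20.4%, 23.3% and 29.0% with DMSO at 2 h. The highest share with label was that of MED26, at 60.3% with DMSO at 2 h and 0.789% without 4sU.

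**Figure D1:**
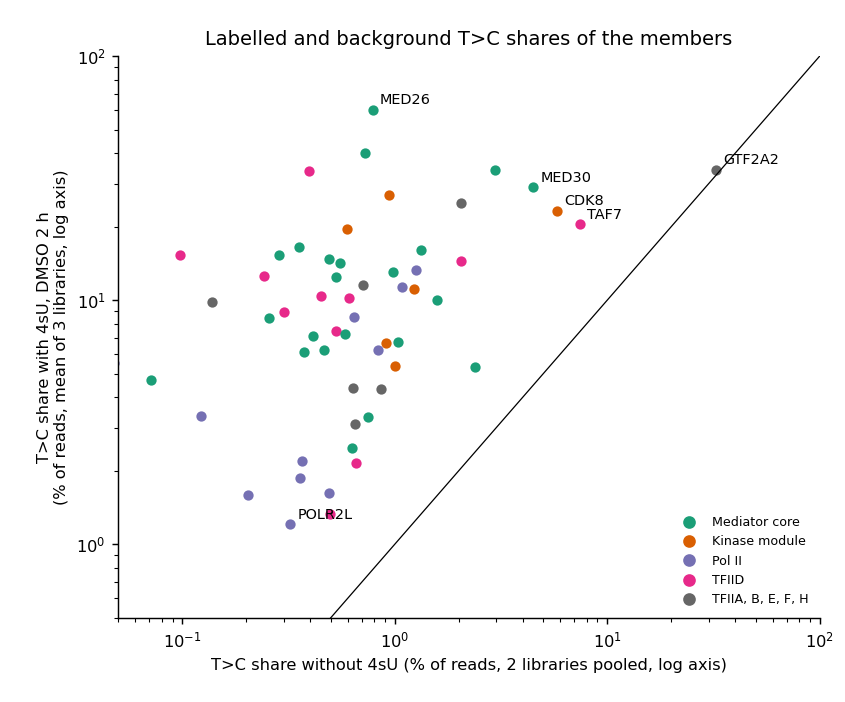
Share of T>C reads of each gene of the machinery without 4sU (x axis, 2 libraries pooled, percent, log scale) and with DMSO at 2 h (y axis, mean of 3 libraries, percent, log scale), with a line of equality. Of the 68 genes, 58 are plotted, and of these MED25 (0.421% with DMSO) and POLR2C (0.0479% without 4sU) fall just outside the axis limits. GTF2A2 lies on the line at 32.6% and 34.3% while MED26 lies highest at 60.3%.

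Across the machinery, few genes changed in T>C reads at 2 h, and more were lower than higher at 6 h and 24 h. Of 67 genes tested, 1 fell and 5 rose at 2 h, against 8.35% of all 10086 genes tested that fell and 2.45% that rose. At 6 h, 7 fell and none rose in edgeR (background 21.3% and 3.02%; 2 rose at an unadjusted p under 0.05), with 5 rising when libraries were scaled by T>C reads and 1 in DESeq2 (size factors of total reads). At 24 h, 16 fell and 3 rose (background 37.1% and 2.77%). Beyond 2-fold, 1 gene fell and 3 rose at 2 h (background 7.14% and 1.66%), 3 fell and 0 rose at 6 h (17.1% and 2.36%), and 11 fell and 3 rose at 24 h (31.2% and 2.17%). In percent, the genes that fell were 1.49%, 10.4% and 23.9% of those tested at 2, 6 and 24 h, each below the share over all genes, and the genes that rose were 7.46%, 0% and 4.48%. Scaled by T>C reads, the split at 6 h changed to 2 genes down and 5 up, and that at 24 h to 3 down and 9 up. The median over all genes also moved up under that scaling, and the share of all genes called under it is not given here. The median log2 fold change of the machinery was 0.18 at 2 h, against 0.05 over all genes. At 6 h it was -0.12 against -0.27 and at 24 h -0.42 against -0.69, and scaled by T>C reads it turned to 0.19 at 6 h and 0.20 at 24 h.

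Calls that held under every scaling tried were 1 gene lower (GTF2A1) and 5 higher (MED18, MED24, MED28, POLR2C and TAF3) at 2 h, 2 lower (MED13L and MED26) at 6 h, and 3 lower (GTF2F2, MED26 and POLR2D) and 3 higher (CDK19, MED19 and TAF1) at 24 h. The 5 genes that fell at both 6 and 24 h were GTF2F2, MED13L, MED26, POLR2D and POLR2H, which is 71.4% of the genes lower at 6 h and 31.2% of those lower at 24 h. Over all genes 21.3% were lower at 6 h and 37.1% at 24 h, and the share lower at both times is not given here. TAF1 was lower at 6 h, a call not made when scaled by T>C reads, and higher at 24 h.

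**Figure D2:**
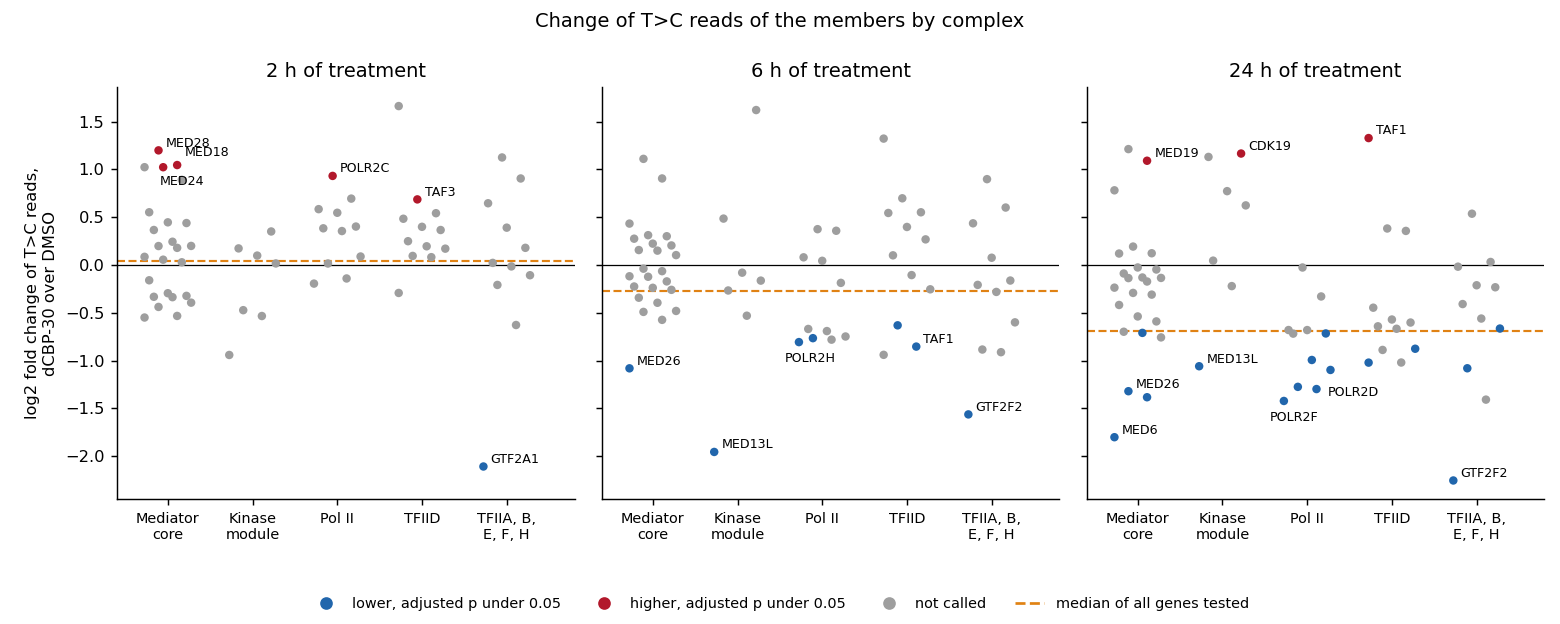
Log2 fold change of T>C reads, dCBP-30 over DMSO at the same time, of each gene tested (points) by complex at 2, 6 and 24 h, with blue for genes called lower, red for higher and grey for not called (edgeR adjusted p under 0.05), and an orange dashed line at the median of all genes. The line lies at 0.05, -0.27 and -0.69, and the 11 polymerase genes all lie below 0 at 24 h, which became 9 when libraries were scaled by T>C reads in edgeR and 5 in DESeq2 with size factors of T>C reads.

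In total reads no gene of the machinery fell in edgeR or DESeq2 and 2 rose of 68 tested at 2 h (background 2.67% and 1.55% of 12272 genes), with 3 lower at an unadjusted p under 0.05 in edgeR. At 6 h, 8 fell and 15 rose (background 21.5% and 18.8%), and at 24 h 17 fell and 14 rose (background 29.9% and 28.7%). These were 11.8% and 22.1% of the genes tested at 6 h and 25% and 20.6% at 24 h. Without TMM factors the split at 6 h was 4 genes down and 32 up, and that at 24 h was 3 down and 41 up. The median over all genes also rose without these factors, and the share of all genes then called is not given here. In total reads the median log2 fold change was -0.06, 0.08 and 0.02 at 2, 6 and 24 h, against -0.00, 0.02 and 0.05 over all genes. Changes beyond 2-fold were few, with 0 genes at 2 h (background 1.25% lower and 0.464% higher). At 6 h 2 genes fell and 1 rose by more than 2-fold (8.67% and 7.47%), and at 24 h 4 fell and 4 rose (16.1% and 15%).

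**Figure D3:**
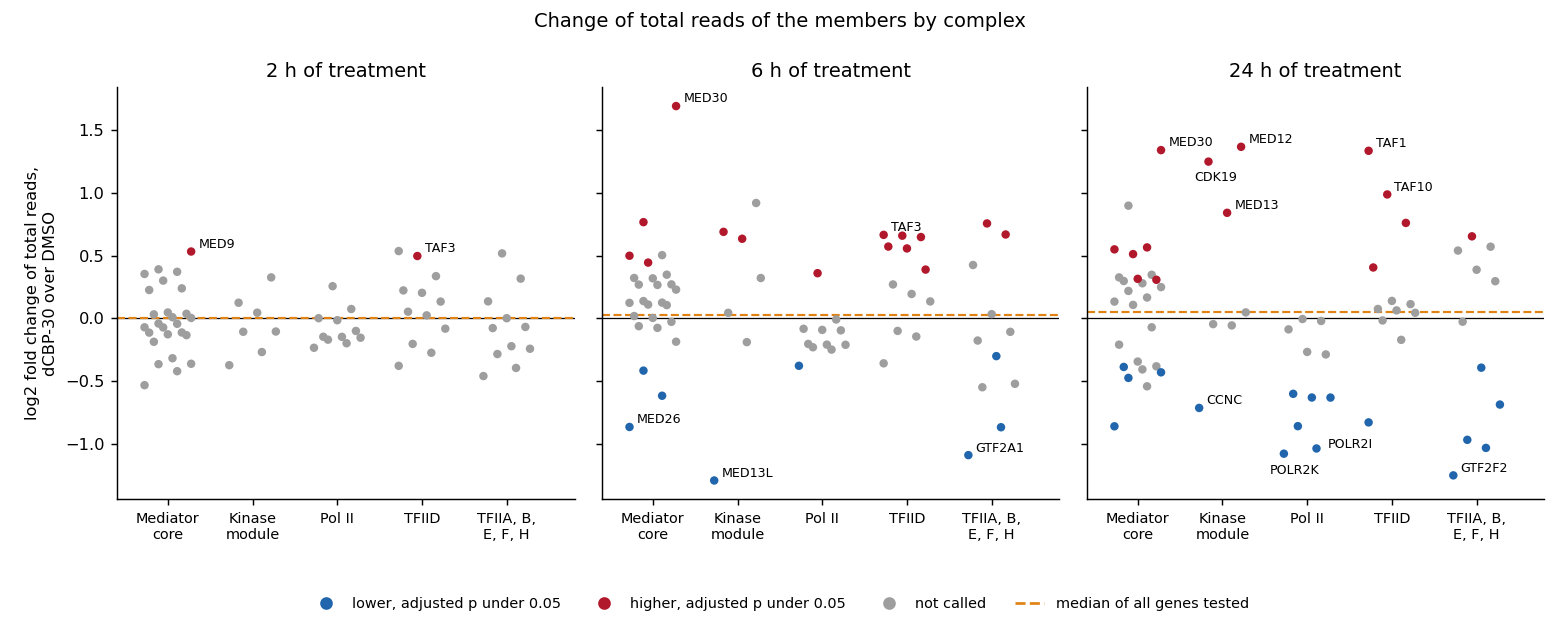
Log2 fold change of total reads, dCBP-30 over DMSO at the same time, of each gene tested (points) by complex at 2, 6 and 24 h, with blue for genes called lower, red for higher and grey for not called (edgeR adjusted p under 0.05), and an orange dashed line at the median of all genes. At 24 h the 11 polymerase genes have a median of -0.60 and the 12 TFIID genes one of 0.09, which without TMM factors become -0.08 and 0.62.

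RefSeq promoter sequences of GRCh38.p14, from 250 bases before to 50 after the gene start, were found for 56 of the 72 genes. The E-box letters CACGTG, which read the same on both strands, occurred in 6 of these (10.7%) and in 8.98% of 15138 promoters of protein-coding genes in the files. They are shown as sequence context for genes described below, and were picked out after their values were seen: MED13L, GTF2A1 and GTF2H1 were called lower and CDK8, GTF2B and TAF12 higher in total reads at 6 h. Over all genes with a promoter sequence tested at that time, 21.5% were lower and 19.2% higher. Over the 1021 with an E-box, 30.5% were lower and 14.7% higher. At 24 h the shares were 29.9% and 29.1% over all such genes, and 35% and 26.2% with an E-box. Whether the motif bears on the direction of change was not tested. The calls of CDK8 and GTF2B did not hold when single libraries were left out. The windows of 30 bases, 5′ to 3′ on the gene's strand with the motif in capitals, are:
MED13L, chr12:116277728-116277757, minus strand, motif from base -52: gccggcgcccgtCACGTGaccaagcgccag
GTF2A1, chr14:81221382-81221411, minus strand, motif from base -9: cggaagccacgcCACGTGaccagtcctcct
GTF2H1, chr11:18322511-18322540, plus strand, motif from base -44: gcgctcttgagtCACGTGcccagggcccgc
GTF2H1, chr11:18322544-18322573, plus strand, motif from base -11: gctacttccggtCACGTGccctcagactcc
CDK8, chr13:26253917-26253946, plus strand, motif from base -200: tggggctggttcCACGTGgtgcatttggcg
GTF2B, chr1:88891663-88891692, minus strand, motif from base -113: gaaatcgcaaagCACGTGacgtatgggatc
TAF12, chr1:28643171-28643200, minus strand, motif from base -121: caatatcgccacCACGTGtcggagggcagt

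The cAMP response element TGACGTCA, a palindromic site bound by CREB, a factor that recruits CBP and p300, occurred in 2 of the 56 promoters (3.57%) and in 2.68% of all 15138. The 2 genes were MED18, called higher in T>C reads at 2 h, and TAF10, called higher in total reads at 24 h. No window overlaps an E-box, and a match is given as a description of the sequence only. The 2 windows, written the same way, are:
MED18, chr1:28328823-28328852, plus strand, motif from base -206: agcatggcctaTGACGTCAaggatccaggt
TAF10, chr11:6612246-6612275, minus strand, motif from base -48: tcgtgggcgcgTGACGTCAccccggggtgt
TATAAA was found on either strand in 3 of the 56 promoters (5.36%, GTF2B, MED16 and MED7) and in 9.31% of all. CCAAT was found on either strand in 16 (28.6%) and in 36.6% of all, and in none of the 8 polymerase promoters matched.

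In the Mediator core, 25 genes were tested in T>C reads and 26 in total reads. T>C reads rose for 3 genes at 2 h (background 2.45% higher) and fell for 1 at 6 h (21.3% lower). At 24 h they fell for 4 and rose for 1 (37.1% and 2.77%). The genes that fell were 4% and 16% of those tested at 6 and 24 h, each below the share over all genes. The median log2 fold change of T>C reads was 0.18, -0.06 and -0.17 at the 3 times, and 0.19, 0.25 and 0.48 when libraries were scaled by T>C reads. Total reads rose for 1 gene at 2 h, fell for 3 and rose for 4 at 6 h, and fell for 4 and rose for 6 at 24 h (background at 6 h 21.5% lower against 18.8% higher, and at 24 h 29.9% against 28.7%). Without TMM factors these counts became 1 down and 14 up at 6 h, and 0 down and 17 up at 24 h.

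The head module binds the polymerase most directly. MED18 (hg38 3′ UTR chr1:28334968-28335965, plus strand), a head subunit, gave 5.54, 2.82 and 2.31 RPM of T>C reads in the 3 DMSO libraries at 2 h and 8.19, 6.53 and 7.32 with dCBP-30. The groups did not overlap, and T>C reads rose by a log2 fold change of 1.05 ± 0.32 (SE, edgeR adjusted p = 0.0201). The call was lost without dCBP-30 replicate 1 or 3 or DMSO replicate 2 or 3 (adjusted p = 0.0512 to 0.145). At 24 h T>C reads of MED18 had a log2 fold change of -0.14 (adjusted p = 0.763), and its total reads rose at 6 h by a log2 fold change of 0.50 ± 0.14 (adjusted p = 0.00727). MED22 (chr9:133338312-133341507, minus strand), another head subunit, fell at later times. Its 24 h T>C reads were 5.38, 5.43 and 7.90 RPM with DMSO and 2.95, 2.53 and 1.66 with dCBP-30, every treated library below every control, with a log2 fold change of -1.38 ± 0.37 (adjusted p = 0.00200). Total reads of MED22 fell with a log2 fold change of -0.62 at 6 h (adjusted p = 0.00462) and with a log2 fold change of -0.86 at 24 h (adjusted p = 9.83e-05). MED6 (chr14:70583221-70584815, minus strand) fell in T>C reads at 24 h with a log2 fold change of -1.80 ± 0.58 (adjusted p = 0.00936), a call lost without dCBP-30 replicate 2 or DMSO replicate 3 (adjusted p = 0.0647 to 0.0659). The T>C calls of MED6 and MED22 at 24 h were not made when libraries were scaled by T>C reads. The total-read calls of MED22 at 6 and 24 h were not made without TMM factors.

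In the middle module MED26 fell and MED19 rose in T>C reads. MED26 (chr19:16574919-16576029, minus strand), the subunit that recruits elongation complexes to the polymerase, gave 25.6, 27.1 and 24.2 RPM of T>C reads with DMSO and 10.7, 12.7 and 13.0 with dCBP-30 at 6 h. At 24 h the values were 32.1, 30.3 and 26.2 with DMSO and 11.4, 13.6 and 10.4 with dCBP-30. The groups did not overlap at either time, and T>C reads fell with a log2 fold change of -1.08 ± 0.19 at 6 h (edgeR adjusted p = 9.22e-06) and with a log2 fold change of -1.32 ± 0.19 at 24 h (adjusted p = 7.96e-08), the latter a change of 2.50-fold. Its T>C share at 24 h was 76.5% with DMSO and 39.0% with dCBP-30. Total reads of MED26 were 50.2, 41.8 and 38.6 RPM with DMSO and 23.4, 22.8 and 25.4 with dCBP-30 at 6 h, a log2 fold change of -0.87 ± 0.16 (adjusted p = 8.43e-05), and at 24 h the log2 fold change was -0.34 (adjusted p = 0.0581).

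MED19 (chr11:57703714-57704624, minus strand), which joins the middle module to the rest of Mediator, moved the other way. At 24 h its T>C reads were 13.0, 10.6 and 12.4 RPM with DMSO and 23.9, 26.9 and 25.8 with dCBP-30. No treated library lay near a control, and T>C reads rose by a log2 fold change of 1.09 ± 0.23 (edgeR adjusted p = 6.71e-05). Total reads of MED19 rose by a log2 fold change of 0.31 (adjusted p = 0.0291), a call lost without dCBP-30 replicate 1 or 2 or DMSO replicate 1 or 3 (adjusted p = 0.0553 to 0.103). MED9 (chr17:17491493-17493221, plus strand) rose in total reads at 2 h by a log2 fold change of 0.53 ± 0.15 (adjusted p = 0.0375), which was lost when any of the 6 libraries at that time was left out, and fell in T>C reads at 24 h with a log2 fold change of -0.71 ± 0.29 (adjusted p = 0.0422), which was lost when any of the 6 libraries at 24 h was left out except dCBP-30 replicate 3 and reversed to 0.03 in DESeq2 (size factors of T>C reads). MED1 (chr17:39404285-39407477, minus strand), the subunit contacted by nuclear receptors, passed the test in edgeR at no time, and in DESeq2 (size factors of T>C reads) it was called higher at 24 h (0.60). Its log2 fold changes of T>C reads were 0.18 (95% interval -0.23 to 0.59) at 2 h, -0.17 (-0.58 to 0.24) at 6 h and -0.14 (-0.54 to 0.27) at 24 h. MED14 (chrX:40648305-40651808, minus strand), the scaffold, was not called either, with T>C values of -0.44 (-1.66 to 0.79), -0.23 (-1.48 to 1.03) and -0.42 (-1.61 to 0.77).

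In the tail, MED24 (chr17:40019098-40019531, minus strand) and MED28 (chr4:17623796-17634105, plus strand) rose in T>C reads at 2 h. MED24 gave 5.16, 6.49 and 7.99 RPM with DMSO and 14.1, 13.1 and 12.8 with dCBP-30, a log2 rise of 1.02 ± 0.26 (edgeR adjusted p = 0.00431), with all treated libraries above all controls. MED28 gave 1.77, 5.50 and 3.36 RPM with DMSO and 7.59, 9.31 and 7.64 with dCBP-30, also without overlap, a log2 rise of 1.2 ± 0.32 (adjusted p = 0.00515) that became 0.88 without DMSO replicate 1 (adjusted p = 0.0973). For neither gene did T>C reads pass the test at 6 or 24 h in the scaling by total reads, while MED24 was called higher at 24 h when scaled by T>C reads. In total reads MED24 rose at 6 h by a log2 fold change of 0.44 ± 0.13 (adjusted p = 0.00957), a call lost without dCBP-30 or DMSO replicate 3 (adjusted p = 0.0501 and 0.0593), and MED28 rose at 24 h by a log2 fold change of 0.51 ± 0.12 (adjusted p = 6.47e-04).

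MED30, a metazoan-specific subunit, had the largest rise of the machinery in total reads at 6 h. Its total reads were 4.88, 2.41 and 3.46 RPM with DMSO and 9.94, 12.9 and 12 with dCBP-30, without overlap, a log2 rise of 1.69 ± 0.31 (edgeR adjusted p = 1.04e-04). At 24 h they rose by a log2 fold change of 1.34 ± 0.31 (adjusted p = 7.12e-04). T>C reads of MED30 had log2 fold changes of -0.12 at 6 h and 1.21 at 24 h (adjusted p = 0.926 and 0.131), the latter called higher when scaled by T>C reads. MED23 (chr6:131586732-131587681, minus strand), a tail subunit that receives signals from MAP kinase targets, rose in total reads by a log2 fold change of 0.77 ± 0.22 at 6 h (adjusted p = 0.00687) and by a log2 fold change of 0.55 ± 0.22 at 24 h (adjusted p = 0.0327). The call at 24 h was lost without dCBP-30 replicate 2 or 3 or DMSO replicate 1 or 3 (adjusted p = 0.0548 to 0.176). MED25, whose 3′ UTR in the files is 35 bases, had a median of 6 T>C reads and was tested in total reads only. The 3′ UTRs of MED17 and MED20 overlap another annotated gene, so their reads are uncertain.

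In the kinase module MED13L fell in T>C reads at 6 and 24 h, and CDK19 rose at 24 h. Of its 7 genes, none was called in T>C reads at 2 h in edgeR or DESeq2 (background 8.35% lower and 2.45% higher in edgeR). At that time 2 were lower at an unadjusted p under 0.05 in edgeR. At 6 h 1 fell (background 21.3% lower), and at 24 h 1 fell and 1 rose (37.1% and 2.77%). In total reads 1 fell and 2 rose at 6 h (background 21.5% and 18.8%) and 1 fell and 3 rose at 24 h (29.9% and 28.7%), which without TMM factors became 1 down but 4 up at 6 h, then 0 down but 5 up at 24 h. The median log2 fold change of T>C reads was 0.02, -0.16 and 0.62 at the 3 times, and 0.02, 0.16 and 1.27 when scaled by T>C reads.

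MED13L (chr12:115958576-115961268, minus strand) and MED13 (chr17:61942605-61946470, minus strand) encode alternative subunits that link the kinase to the core. T>C reads of MED13L were 16.5, 16 and 16 RPM with DMSO at 6 h and 5.57, 3.61 and 3.31 with dCBP-30. At 24 h they were 20.2, 19.1 and 23.3 with DMSO and 9.96, 9.17 and 10.9 with dCBP-30. At both times every treated library lay below every control, with a log2 fold change of -1.96 ± 0.24 at 6 h (edgeR adjusted p = 6.29e-10) and -1.06 ± 0.22 at 24 h (adjusted p = 8.03e-05). The call at 24 h was not made when libraries were scaled by T>C reads. At 2 h the values were 17.5, 14.0 and 13.7 RPM with DMSO and 12.3, 10.6 and 9.70 with dCBP-30, without overlap but short of the threshold (-0.47, adjusted p = 0.202). The change at 6 h was lower than that at 2 h, with a log2 difference of -1.48 ± 0.32 (adjusted p = 0.00102), a test in which 7.35% of all genes were lower and 0.684% higher. Total reads of MED13L were 64.1, 69.6 and 70.5 RPM with DMSO and 31.7, 22 and 29.7 with dCBP-30 at 6 h, a log2 fold change of -1.29 ± 0.15 (adjusted p = 8.98e-08). At 24 h they did not pass the test, with a log2 fold change of -0.06 (95% interval -0.33 to 0.22) that reversed to 0.47 without TMM factors.

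MED13 was not called in T>C reads, with log2 fold changes of -0.53, -0.53 and 0.05 at 2, 6 and 24 h (adjusted p = 0.136, 0.0767 and 0.899), and was called higher at 24 h when scaled by T>C reads. Total reads of MED13 at 24 h were 40.5, 39.6 and 37.2 RPM with DMSO and 66.1, 77.9 and 66.4 with dCBP-30. The treated libraries lay above all controls, a log2 rise of 0.84 ± 0.12 (edgeR adjusted p = 2.54e-06). MED12 (chrX:71119375-71142450, plus strand, spliced across many exons, 6671 bases in the files), which activates the kinase, gave 18.4, 14.7 and 15.7 RPM of total reads with DMSO at 24 h and 46.7, 36.5 and 42.9 with dCBP-30. This was a log2 rise of 1.37 ± 0.18 (adjusted p = 3.07e-07), again without overlap, while its T>C reads had 0.62 (adjusted p = 0.552). MED12L (chr3:151432802-151437072, plus strand), its paralog, had a median of 18 reads per library and was not called.

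CDK19 (chr6:110609978-110614537, minus strand) and CDK8 (chr13:26353744-26405238, plus strand, spliced, 2230 bases) encode the alternative kinases. CDK19 gave 3.05, 3.04 and 3.12 RPM of T>C reads with DMSO at 24 h and 4.32, 9.45 and 6.92 with dCBP-30. The groups did not overlap, with a log2 rise of 1.17 ± 0.37 (edgeR adjusted p = 0.00949) that became 0.87 without dCBP-30 replicate 2, the highest library (adjusted p = 0.104). Total reads of CDK19 rose from 31.4, 27.8 and 29.4 to 48.7, 38.2 and 50.8 RPM at 6 h, by a log2 fold change of 0.63 ± 0.16 (adjusted p = 0.00323). At 24 h they rose from 25.8, 25.7 and 23.3 to 55.6, 69.0 and 53.3 RPM, by a log2 fold change of 1.25 ± 0.17 (adjusted p = 4.93e-07). CDK8 rose in total reads at 6 h, from 9.27, 12.6 and 10.9 to 17.5, 19.3 and 16.2 RPM, by a log2 fold change of 0.69 ± 0.24 (adjusted p = 0.0223), a call lost without dCBP-30 replicate 2 or DMSO replicate 1 or 3 (adjusted p = 0.0570 to 0.0879). T>C reads of CDK8 at 24 h had 1.13 ± 0.59 (adjusted p = 0.122), called higher when scaled by T>C reads. Its T>C share at 24 h was 10.1 ± 8.16% with DMSO and 22.7 ± 3.86% with dCBP-30 (mean ± SD). The share without 4sU was 5.80%, so the DMSO level at 24 h lay near the background. CCNC (chr6:99542387-99549391, minus strand), cyclin C, fell in total reads at 24 h from 45.5, 52.1 and 62.9 to 29.8, 34.3 and 33.7 RPM, with a log2 fold change of -0.71 ± 0.21 (adjusted p = 0.00485), and its T>C reads had -0.22 (95% interval -1.02 to 0.57). CCNC was not called in total reads without TMM factors.

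**Figure D4:**
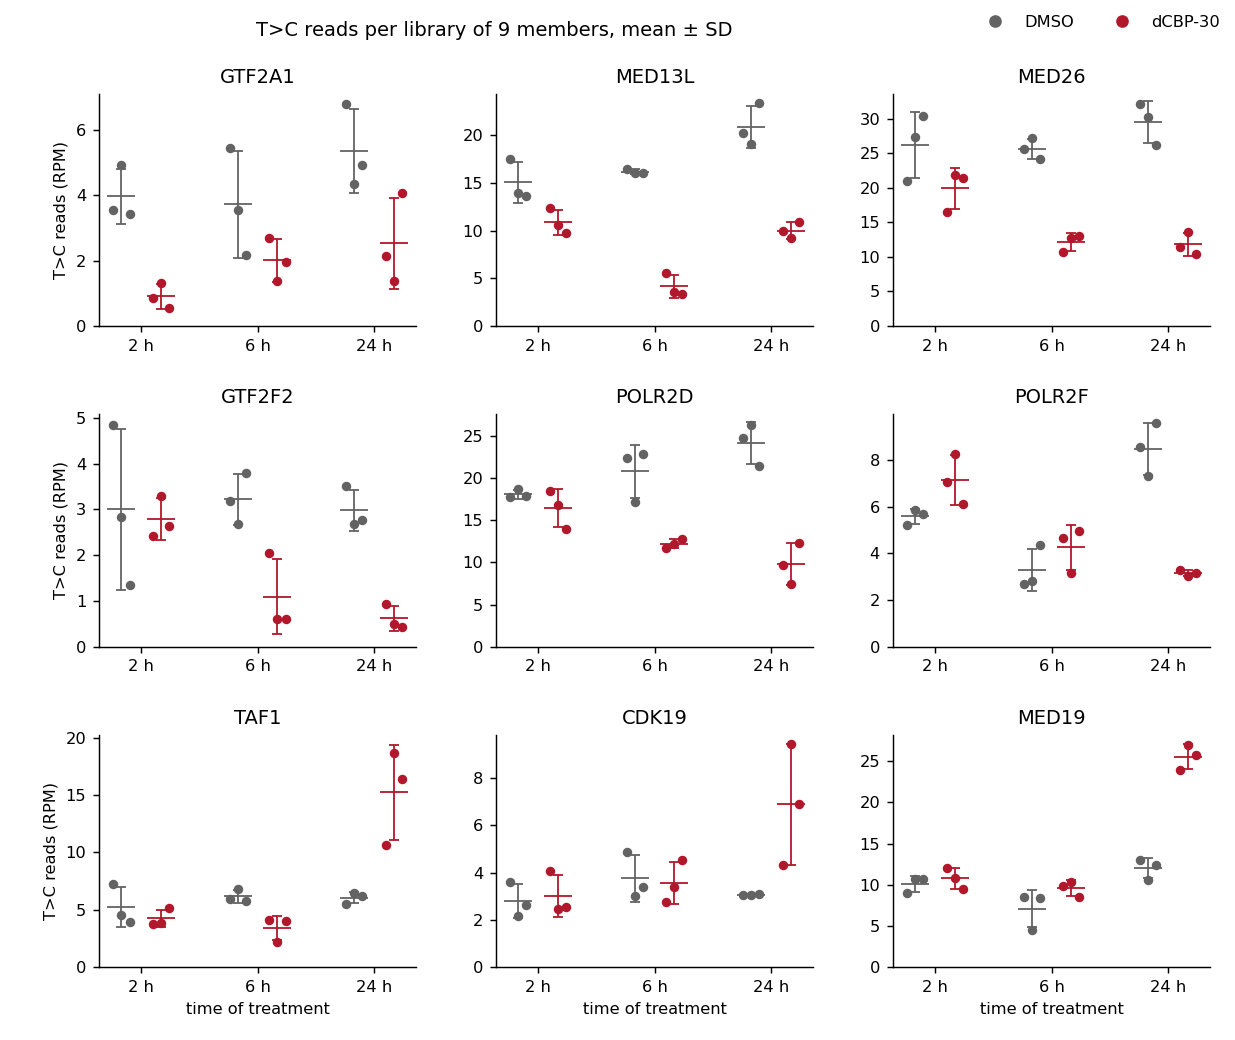
T>C RPM (TMM-scaled, y axis) in each labelled library (points) for 9 genes of the machinery, DMSO and dCBP-30 side by side at 2, 6 and 24 h, with dashes and bars for mean ± SD of 3 libraries. GTF2A1 is lower with dCBP-30 at 2 h, MED13L at 6 and 24 h, and GTF2F2, MED26 and POLR2D at 24 h, while CDK19, MED19 and TAF1 are higher at 24 h.

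Of RNA polymerase II, more genes fell than rose at 24 h in both measures when libraries were scaled by total reads with TMM factors. Of 11 genes tested in T>C reads, 1 rose at 2 h (background 2.45% higher) and 2 fell at 6 h (21.3% lower). At 24 h 6 fell, which is 54.5% of them against 37.1% of all genes. In total reads 1 fell and 1 rose at 6 h (background 21.5% and 18.8%), and 6 fell at 24 h (54.5% against 29.9%). All 11 had log2 fold changes below 0 at 24 h in both measures. The common direction depended on the scaling. Scaled by T>C reads in edgeR, 9 of the 11 lay below 0 in T>C reads at 24 h and 1 was called lower. In DESeq2 with size factors of T>C reads, 5 of the 11 lay below 0, with a median of 0.03, 1 called lower and 1 higher. Without TMM factors 6 of the 11 lay below 0 in total reads, with 1 lower and 3 higher. Over the polymerase, the median log2 fold change was 0.38, -0.67 and -0.72 in T>C reads (0.39, -0.35 and -0.07 when scaled by them) and -0.15, -0.20 and -0.60 in total reads.

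Of the 6 subunits of its own tested, 2 fell in T>C reads at 24 h, and of the 5 shared with polymerases I and III, 4 fell (background 37.1%). POLR2D (chr2:127843553-127848109, minus strand), which with its partner subunit forms the stalk, gave 22.4, 17.2 and 22.9 RPM of T>C reads with DMSO and 11.7, 12.2 and 12.8 with dCBP-30 at 6 h. At 24 h it gave 24.8, 26.3 and 21.5 RPM with DMSO and 9.74, 7.42 and 12.3 with dCBP-30. Without overlap at either time, T>C reads fell with a log2 fold change of -0.77 ± 0.20 (edgeR adjusted p = 0.00297) and -1.30 ± 0.21 (adjusted p = 4.67e-07). Total reads of POLR2D at 24 h fell from 139, 142 and 129 to 85.8, 81.0 and 97.9 RPM, with a log2 fold change of -0.63 ± 0.11 (adjusted p = 4.16e-05). POLR2I (chr19:36113714-36114246, minus strand), a small subunit that helps proofreading, fell in total reads at 24 h from 136, 156 and 175 to 67.3, 81.6 and 78.5 RPM, with a log2 fold change of -1.04 ± 0.12 (adjusted p = 6.00e-08). Its T>C reads fell with a log2 fold change of -1.10 ± 0.46 (adjusted p = 0.0495), a call at the threshold that was lost when leaving out any of 11 libraries, among them dCBP-30 replicates 1 and 2 and DMSO replicates 2 and 3 at 24 h (adjusted p = 0.0504 to 0.292).

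POLR2C (chr16:57471117-57472009, plus strand), which starts assembly of the enzyme, gave 3.92, 3.31 and 5.08 RPM of T>C reads with DMSO at 2 h and 10.2, 6.53 and 6.88 with dCBP-30. The treated libraries lay above the controls, a log2 rise of 0.93 ± 0.31 (edgeR adjusted p = 0.0415) that was lost without dCBP-30 replicate 1 or 3 or DMSO replicate 1 or 2 at 2 h or DMSO replicate 3 at 24 h (adjusted p up to 0.258). At 6 h its total reads rose by a log2 fold change of 0.36 ± 0.12 (adjusted p = 0.0206), lost without dCBP-30 replicate 1 or DMSO replicate 2 (adjusted p = 0.0552 and 0.122). POLR2B (chr4:57030986-57031158, plus strand), the second largest subunit, was not called in either measure. Its log2 fold changes of T>C reads were 0.02 (95% interval -0.55 to 0.58), -0.67 (-1.23 to -0.11) and -0.33 (-0.88 to 0.22). In total reads they were -0.10 (-0.44 to 0.24), -0.21 (-0.54 to 0.13) and -0.02 (-0.36 to 0.31), the last reversing to 0.51 without TMM factors. POLR2J has near-identical copies in the genome, so its reads are uncertain.

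Among the shared subunits, POLR2F (chr22:37959425-37967798, plus strand) gave 8.55, 7.33 and 9.57 RPM of T>C reads with DMSO at 24 h and 3.28, 3.02 and 3.16 with dCBP-30. This was a log2 fold change of -1.42 ± 0.32 (edgeR adjusted p = 1.91e-04), without overlap. Its DMSO libraries at 6 h gave 2.69, 2.82 and 4.34 RPM, close to the treated libraries at 24 h, so the DMSO level itself differed between times. Total reads of POLR2F fell at 24 h from 234, 262 and 257 to 166, 164 and 155 RPM, with a log2 fold change of -0.63 ± 0.11 (adjusted p = 2.07e-05). POLR2H (chr3:184368292-184368593, plus strand) gave 11.5, 8.65 and 10.4 RPM of T>C reads with DMSO and 5.81, 5.66 and 5.95 with dCBP-30 at 6 h, all treated libraries being below the controls. At 24 h it gave 10.7, 11.2 and 13.1 RPM with DMSO and 4.76, 6.65 and 6.12 with dCBP-30, again without overlap. The log2 fold changes were -0.81 ± 0.27 (adjusted p = 0.0212) and -0.99 ± 0.27 (adjusted p = 0.00204), the first lost without replicate 1 or 2 of dCBP-30 or replicate 1 or 3 of DMSO (adjusted p = 0.0523 to 0.0873). Total reads of POLR2H fell at 24 h with a log2 fold change of -0.86 ± 0.17 (adjusted p = 1.35e-04).

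POLR2L and POLR2E also fell in T>C reads at 24 h, with a log2 fold change of -1.28 ± 0.32 (edgeR adjusted p = 9.37e-04) and -0.72 ± 0.21 (adjusted p = 0.00434). POLR2K fell in total reads with a log2 fold change of -1.08 ± 0.26 (adjusted p = 0.00114), and POLR2L with a log2 fold change of -0.60 (adjusted p = 5.32e-04). Scaled by T>C reads, POLR2D alone of the 6 polymerase genes kept its T>C call at 24 h, and POLR2I alone of the 6 kept its call in total reads without TMM factors.

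In TFIID, genes were called in both directions. Of 12 genes tested in T>C reads, 1 rose at 2 h (background 2.45% higher) and 2 fell at 6 h (21.3% lower). At 24 h, 2 fell and 1 rose (37.1% and 2.77%). In total reads 1 rose at 2 h, 6 rose at 6 h (background 18.8% higher), and 1 fell and 4 rose at 24 h (29.9% and 28.7%). Without TMM factors 9 TFIID genes rose at 6 h, and none fell and 10 rose at 24 h. The median log2 fold change of T>C reads was 0.31, 0.18 and -0.62, and the last became 0.02 when scaled by T>C reads. TAF4 and TAF9 had a median of 0 reads and were not tested.

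TBP (chr6:170567293-170572832, plus strand), the TATA-binding protein, was not called. Its T>C reads had log2 fold changes of 0.09 (95% interval -0.86 to 1.05), -0.94 (-1.93 to 0.05) and -1.02 (-2.01 to -0.03). Its total reads had log2 fold changes of 0.13 (-0.42 to 0.69), -0.14 (-0.70 to 0.41) and -0.02 (-0.57 to 0.54).

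TAF1 (chrX:71454174-71465968, plus strand), the largest subunit and scaffold of TFIID, gave 5.95, 6.84 and 5.76 RPM of T>C reads with DMSO at 6 h and 4.07, 2.22 and 3.98 with dCBP-30. At 24 h it gave 5.51, 6.44 and 6.24 with DMSO and 10.6, 18.7 and 16.4 with dCBP-30. The treated libraries lay below all controls at 6 h and above all at 24 h. The log2 fold change at 6 h was -0.85 ± 0.31 (edgeR adjusted p = 0.0347), lost without dCBP-30 replicate 2 or any 1 DMSO library of that time (adjusted p = 0.0532 to 0.212), and that at 24 h was 1.33 ± 0.30 (adjusted p = 2.05e-04). The T>C call at 6 h was also not made when libraries were scaled by T>C reads. The change at 24 h exceeded that at 2 h by a log2 fold change of 1.62 ± 0.43 (adjusted p = 0.00293), a test in which 3.02% of all genes were higher and 23% lower. Total reads of TAF1 were 43.3, 44.2 and 58.8 RPM with DMSO at 24 h and 115, 141 and 113 with dCBP-30, a log2 rise of 1.34 ± 0.15 (adjusted p = 3.41e-08). At 6 h they rose by a log2 fold change of 0.39 ± 0.15 (adjusted p = 0.0399), the opposite sign to its T>C reads, and this call was lost without any 1 dCBP-30 library or DMSO replicate 1 or 3 (adjusted p = 0.0622 to 0.161).

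TAF3 (chr10:7963945-7979338, plus strand), which reads trimethylated histone H3 at promoters, rose and then fell in T>C reads. At 2 h it gave 14.2, 15.9 and 14.3 RPM with DMSO and 24.5, 24.8 and 22.1 with dCBP-30. At 24 h it gave 19.3, 17.2 and 24.6 RPM with DMSO and 6.51, 11 and 12.5 with dCBP-30. The groups did not overlap at either time, with log2 fold changes of 0.69 ± 0.21 at 2 h (edgeR adjusted p = 0.0227) and -1.02 ± 0.21 at 24 h (adjusted p = 7.47e-05), and the difference between the times was -1.71 ± 0.30 (adjusted p = 9.94e-06). The call at 2 h was lost without replicate 1 or 2 of dCBP-30 or replicate 1 or 3 of DMSO (adjusted p = 0.0693 to 0.0836), and that at 24 h was not made when scaled by T>C reads. Total reads of TAF3 rose by a log2 fold change of 0.50 ± 0.13 at 2 h (adjusted p = 0.0223), lost without replicate 1 or 2 of either treatment (adjusted p = 0.0793 to 0.179). At 6 h they were 153, 121 and 132 RPM with DMSO and 197, 204 and 244 with dCBP-30, a log2 rise of 0.67 ± 0.13 (adjusted p = 1.60e-04).

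TAF10 (chr11:6610842-6611636, minus strand), a histone-fold subunit that TFIID shares with the SAGA coactivator, rose in total reads at 24 h from 465, 392 and 396 to 861, 831 and 793 RPM, by a log2 fold change of 0.99 ± 0.12 (edgeR adjusted p = 2.29e-07). The other TFIID genes that rose in total reads at 6 h were the histone-fold subunits TAF8, TAF11, TAF12 and TAF13, by log2 fold changes of 0.56 to 0.66. For TAF8 the groups overlapped. TAF5, which forms the core of the complex with its WD40 repeats, fell at 24 h in T>C reads with a log2 fold change of -0.88 ± 0.34 (adjusted p = 0.0341) and in total reads with a log2 fold change of -0.83 ± 0.20 (adjusted p = 7.86e-04). Neither call of TAF5 was made without TMM factors. Its T>C call was also absent when scaled by T>C reads or after the level without 4sU was subtracted. TAF7 fell in T>C reads at 6 h with a log2 fold change of -0.63 ± 0.24 (adjusted p = 0.0467), a call absent after the level without 4sU was subtracted. The same subtraction added a call of lower T>C reads of TAF7 at 24 h. Its total reads rose at 24 h by a log2 fold change of 0.41 ± 0.15 (adjusted p = 0.0274).

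Among the general factors, 11 genes were tested in each measure. T>C reads fell for 1 gene at 2 h, 1 at 6 h and 3 at 24 h (background 8.35%, 21.3% and 37.1% lower). They rose for none at an adjusted p under 0.05 in edgeR (1 at an unadjusted p under 0.05, at 2 h). The 3 at 24 h included GTF2A2, whose T>C reads were not a measure of labelled RNA. At 24 h only GTF2F2 stayed lower after the level in libraries without label was subtracted, or when scaled by T>C reads. GTF2F1 was called higher at 2 h when libraries were scaled by T>C reads, and GTF2E1 at 24 h in DESeq2 (size factors of T>C reads). Total reads fell for 3 and rose for 2 at 6 h (background 21.5% and 18.8%), and fell for 5 and rose for 1 at 24 h (29.9% and 28.7%). The balance turned round without TMM factors, giving 2 down but 3 up at 6 h, then 2 down but 6 up at 24 h. The median log2 fold change of T>C reads was 0.02, -0.21 and -0.41, and became 0.08 at 6 h and 0.24 at 24 h when scaled by T>C reads.

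GTF2A1 (chr14:81175452-81180225, minus strand), the large subunit of TFIIA that steadies TBP on DNA, was the only gene of the machinery that fell in T>C reads at 2 h. It gave 3.54, 4.94 and 3.43 RPM with DMSO (46, 70 and 46 T>C reads) and 0.863, 1.32 and 0.563 with dCBP-30 (10, 20 and 9 reads), against 0 and 8 T>C reads in the 2 libraries without 4sU. The groups were well apart, with a log2 fold change of -2.11 ± 0.48 (edgeR adjusted p = 8.92e-04). At 6 h the log2 fold change was -0.88 ± 0.44 (adjusted p = 0.148). At 24 h it was -1.08 ± 0.43 (adjusted p = 0.0393), a call lost without dCBP-30 replicate 1 or 2 or DMSO replicate 1 or 3 (adjusted p = 0.0614 to 0.206). The call at 24 h was also absent after the level without 4sU was subtracted, or when scaled by T>C reads. Total reads of GTF2A1 at 6 h were 43.5, 46.7 and 40.2 RPM with DMSO and 20.5, 22.9 and 17.8 with dCBP-30, and at 24 h they were 35.3, 43.2 and 42.5 with DMSO and 21.1, 17.1 and 23.6 with dCBP-30. They fell without overlap at both times, with a log2 fold change of -1.09 ± 0.15 (adjusted p = 2.32e-06) and -0.97 ± 0.15 (adjusted p = 5.16e-06). GTF2A2, its partner, was called lower in T>C reads at 24 h (-0.67, adjusted p = 0.0178), but after subtraction of its level without 4sU the estimate was -0.54 ± 1.88 (adjusted p = 0.866). Its total reads fell at 24 h with a log2 fold change of -0.69 ± 0.21 (adjusted p = 0.00728).

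GTF2F2 (chr13:45220882-45284085, plus strand, spliced, 913 bases), the small subunit of TFIIF, gave 3.50, 2.68 and 2.76 RPM of T>C reads with DMSO at 24 h (54, 45 and 38 reads) and 0.930, 0.494 and 0.429 with dCBP-30 (17, 9 and 8 reads). This was a log2 fold change of -2.26 ± 0.55 without overlap (edgeR adjusted p = 5.83e-04), the largest of the genes called at that time. At 6 h it gave 3.18, 2.68 and 3.80 RPM with DMSO and 2.04, 0.610 and 0.613 with dCBP-30, a log2 fold change of -1.56 ± 0.52 (adjusted p = 0.0209) lost without replicate 2 or 3 of dCBP-30 or replicate 3 of DMSO (adjusted p = 0.0762 to 0.118). Total reads of GTF2F2 at 24 h fell from 22.2, 21.8 and 24.8 to 9.36, 11.9 and 7.56 RPM, with a log2 fold change of -1.25 ± 0.22 (adjusted p = 2.89e-05). GTF2F1 (chr19:6379572-6380283, minus strand), the large subunit of the same factor, rose in total reads by a log2 fold change of 0.67 ± 0.14 at 6 h (adjusted p = 5.04e-04) and 0.65 ± 0.14 at 24 h (adjusted p = 3.06e-04).

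GTF2H1 (chr11:18365867-18367045, plus strand), a subunit of the TFIIH core, fell in total reads at 6 h from 16, 18 and 17.6 to 8.62, 9.99 and 9.68 RPM, with a log2 fold change of -0.87 ± 0.21 (edgeR adjusted p = 0.00153). At 24 h its log2 fold change was -0.03 (adjusted p = 0.917) and reversed to 0.50 without TMM factors. GTF2B (chr1:88852633-88853215, minus strand), the factor that places the polymerase at the start site, had 8.71, 11.3 and 13.5 RPM of total reads with DMSO at 6 h and 20.2, 25.1 and 11.3 with dCBP-30. It was called higher (log2 fold change 0.76 ± 0.28, adjusted p = 0.0355) although the groups overlapped, and the call was lost without replicate 1 or 2 of either treatment (adjusted p = 0.0792 to 0.219). GTF2H2, which has near-identical copies and is therefore uncertain, was called lower in total reads at 24 h (-1.03 ± 0.41, adjusted p = 0.0325) with overlapping groups, a call lost without dCBP-30 replicate 2 or 3 or DMSO replicate 1 or 2 (adjusted p = 0.0594 to 0.17). GTF2H4 had a median of 0 reads and was not tested.

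The calls in T>C reads and in total reads overlapped in part. At 24 h, 10 genes were called lower in both measures, which is 62.5% of the 16 lower in T>C reads and 58.8% of the 17 lower in total reads. They were GTF2A1, GTF2A2, GTF2F2, MED22, TAF5 and the polymerase genes POLR2D, POLR2F, POLR2H, POLR2I and POLR2L. Without GTF2A2, whose T>C reads were about as frequent without 4sU, they were 9 genes, or 60% of 15 and 56.2% of 16. The 3 genes that rose in T>C reads at 24 h (CDK19, MED19 and TAF1) all rose in total reads, where they were 21.4% of 14. At 6 h, MED13L and MED26 fell in both, which is 28.6% of 7 and 25% of 8, and TAF1 had opposite signs. Between times, the change in T>C reads differed at 6 h from that at 2 h for 2 genes, both lower (background 7.35% lower and 0.684% higher), and at 24 h from that at 2 h for 15 lower and 2 higher (23% and 3.02%). For total reads these counts were 4 lower and 5 higher (10.7% and 5.04%), and 9 lower and 10 higher (22.8% and 18.3%). T>C reads are part of the total reads of the same libraries, so the measures are not independent. Over all genes at 24 h, 37.1% were lower and 2.77% higher in T>C reads, and 29.9% and 28.7% in total reads. The share of all genes called in both measures is not given here, so the overlaps do not set the machinery apart.

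**Figure D5:**
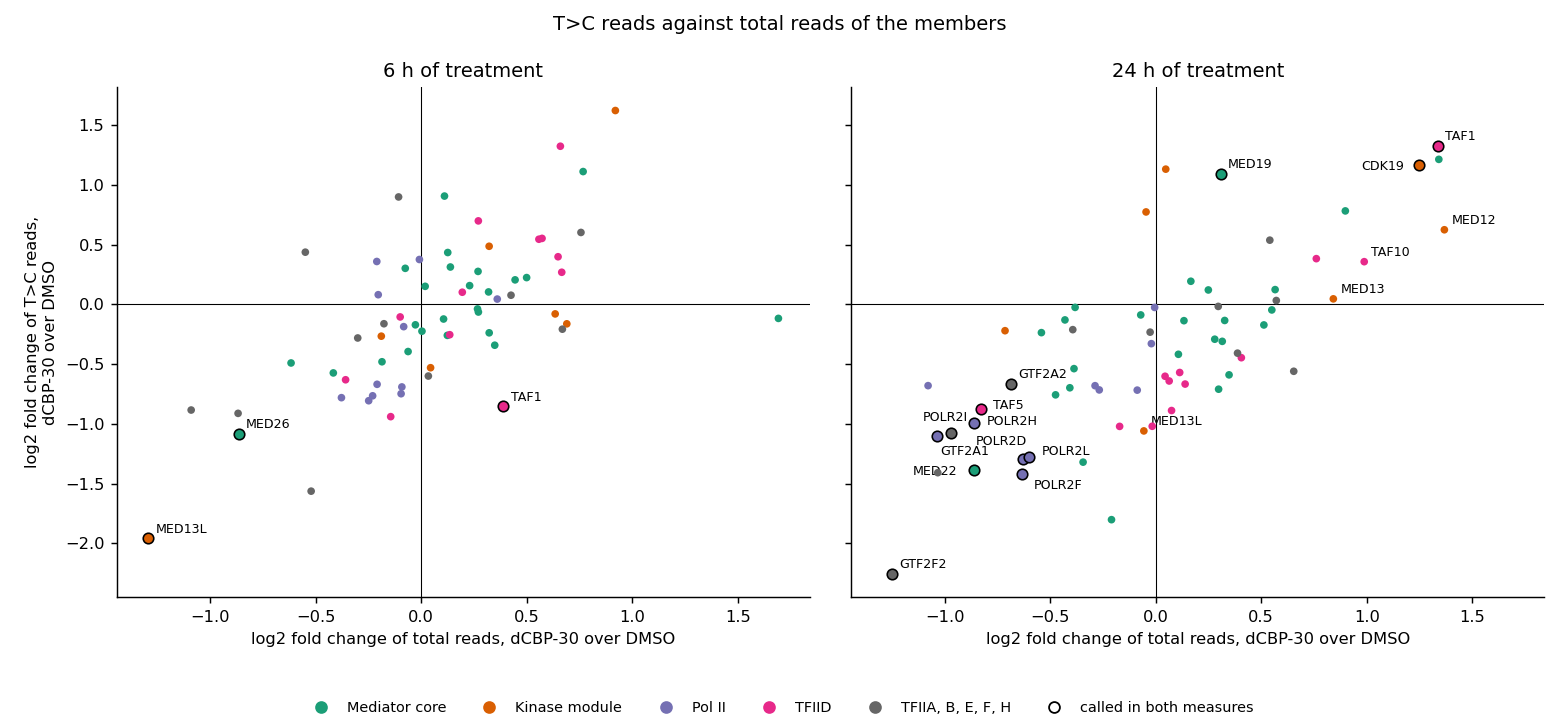
Log2 fold change of T>C reads (y axis) against that of total reads (x axis), dCBP-30 over DMSO, for genes of the machinery tested in both, at 6 h and 24 h, with black outlines for genes called in both measures. MED13L at 6 h (-1.29 in total reads and -1.96 in T>C reads) lies lowest of the outlined genes at that time, and at 24 h 10 outlined genes are lower in both, 9 without GTF2A2, whose T>C reads do not measure labelled RNA, and 3 are higher in both.

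Other genes of the transcription apparatus were counted for comparison, against a background in T>C reads of 21.3% lower (6 h) or 37.1% lower (24 h). Of 11 genes of RNA polymerase III tested in T>C reads, 5 fell at 6 h and 8 at 24 h (median log2 fold change at 24 h -1.40), and of 5 of RNA polymerase I, 3 and 4 fell (median -2.24), with none higher. Of 12 Integrator genes 2 fell at 24 h (median -0.13), of 15 elongation factor genes 5 fell (median -0.49), and of 5 TAF paralogs outside the rule 1 fell (median -0.68). The helicases and kinase subunits of TFIIH outside the rule were called in T>C reads in none of 2 tested, and of 4 tested in total reads 2 rose at 6 h and at 24 h. ERCC3, the TFIIH translocase that opens the promoter, rose in total reads by a log2 fold change of 0.90 ± 0.11 at 6 h (edgeR adjusted p = 5.39e-07) and by a log2 fold change of 0.95 ± 0.11 at 24 h (adjusted p = 9.13e-08). CDK7, the TFIIH kinase, was not among the genes tested.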

How the data were processed

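MM1.S cells were profiled by SLAM-seq with 3′ end (QuantSeq) libraries in 6 labelled groups of 3 libraries and 2 libraries without 4sU. The authors trimmed reads with Trim Galore and processed them with Slamdunk over 3′ UTRs of hg38, and the submitters' processing notes also name DESeq. The deposited files hold, for each 3′ UTR of a transcript, raw counts of reads, of T>C reads and of multimapping reads, not normalized. The labels do not say that replicates came from separate cultures, so p-values measure only the spread between these samples, which may be technical.

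Of 97466 transcript rows per file, 89088 (91.4%) matched GENCODE release 44 by identifier, and the other rows held 0.0789% to 0.199% of reads. A gene was represented by the transcript with the most reads over all libraries. Total and T>C counts were each tested with edgeR 4.0.16 (quasi-likelihood test, R 4.3.3, limma 3.58.1) in 1 model over the 18 labelled libraries, after filterByExpr with a minimum count of 10, with library sizes from total reads and TMM factors, contrasts of dCBP-30 against DMSO at each time and of these changes between times, and Benjamini-Hochberg adjustment over all genes tested. Differences of this kind were called at an adjusted p under 0.05, and the methods' further cut of 2-fold was counted beside it. The scripts were tested on simulated data. Tables were joined with Python 3.11.15, pandas 2.3.3 and numpy 2.4.6.

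Genes were named with values if they were among the 5 largest called decreases or increases at a time, given 20 or more T>C reads, or 50 or more total reads, on average in the higher group, or belonged to a list of catalytic, DNA-binding and scaffold subunits and their paralogs. Further genes (POLR2D, POLR2E, POLR2L, TAF5, TAF7, TAF8, TAF11 to TAF13, GTF2A2, GTF2E1, MED7, MED16, MED17, MED20 and MED25) were named after their values were seen. The genes and lists were chosen with earlier results of these data known. Alternatives were other library sizes, DESeq2 1.42.0, other filters, each time alone, summed transcripts, subtraction of the T>C share without 4sU, a block for the replicate number, and each library left out in turn. Depth of 12440700 to 18729086 reads per labelled library left many genes with few T>C reads, whose fold changes have wide standard errors.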

Additional observations from a re-analysis of the deposited data

Results flagged for a closer look

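The change with dCBP-30 against DMSO differed between times for the genes below, by the interaction test of the edgeR model (change at the later time minus change at 2 h, log2 scale, adjusted p under 0.05 over all genes). The tables of these differences rest on 3 libraries per group, and no outlier test was made in groups of this size.

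In T>C reads the change at 24 h was lower than at 2 h for 15 of 67 genes tested (23% of all genes) and higher for 2 (3.02%). Among the named genes the difference was -2.15 for GTF2F2, -1.94 for MED22, -1.78 for POLR2F, -1.71 for TAF3, -1.69 for POLR2H, -1.69 for GTF2F1, -1.37 for MED28, -1.18 for MED18 and -0.93 for MED26. It was 1.01 for MED19 and 1.62 for TAF1. Scaled by T>C reads, 2 genes were lower (POLR2H and TAF3) and 4 higher (CDK19, MED13, MED19 and TAF1). The change at 6 h was lower than at 2 h for 2 genes, by -1.50 for POLR2H and -1.48 for MED13L (7.35% of all genes), and of these MED13L alone was called when scaled by T>C reads.

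In total reads the change at 24 h was lower than at 2 h for 9 of 68 genes (22.8% of all genes) and higher for 10 (18.3%). The difference was -1.10 for MED22, -0.93 for POLR2H, -0.87 for POLR2I, -0.86 for GTF2F2, -0.75 for GTF2A1, -0.67 for TAF3 and -0.48 for POLR2F. It was 0.56 for MED28, 0.92 for MED23, 0.93 for TAF10, 1.13 for CDK19, 1.21 for MED13, 1.29 for MED30, 1.32 for MED12 and 1.61 for TAF1. At 6 h against 2 h, 4 genes were lower (10.7% of all genes) and 5 higher (5.04%), with -1.02 for MED13L, -0.87 for GTF2A1, -0.86 for MED22 and -0.73 for MED26, and with 0.66 for TAF1, 1.13 for MED23 and 1.65 for MED30.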

How the results depend on the processing

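Library scaling moved the counts most. The counts in this section are of the machinery alone, without the share over all genes. In T>C reads, genes lower at 6 h went from 7 to 2 without TMM factors, scaled by T>C reads or under DESeq2 with size factors from T>C reads, and genes higher from 0 to 5 under each (1 in DESeq2 with total-read size factors). In the same order, genes lower at 24 h went from 16 to 4, 3 and 3 and genes higher from 3 to 8, 9 and 14, genes lower in the 24 h minus 2 h difference from 15 to 5, 2 and 2 and higher from 2 to 4, 4 and 6, and genes lower at 6 h minus 2 h from 2 to 1 under both scalings by T>C reads. At 2 h, genes higher were 9 without TMM factors, against 5. Total reads without TMM factors gave 4 down and 32 up at 6 h (against 8 and 15), and 3 down and 41 up at 24 h (against 17 and 14). Values that changed sign with a call were, under DESeq2 with size factors from T>C reads, T>C reads at 24 h of MED1 (0.60), MED9 (0.028) and POLR2C (0.72), and without TMM factors total reads at 24 h of GTF2H1 (0.50), MED13L (0.47), POLR2B (0.51), POLR2C (0.52) and TAF3 (0.35) and at 6 h of POLR2F (0.31); the cause was not tested. Beyond 2-fold, genes higher in T>C reads at 2 h were 3 and lower at 6 h 3, and for total reads 0 rose at 2 h, 2 fell and 1 rose at 6 h, and 4 fell and 4 rose at 24 h. With reads summed over transcripts, T>C reads gave 3 higher at 2 h and 4 lower at 6 h. Subtraction of the T>C share without 4sU took genes lower in T>C reads at 24 h from 16 to 12, of which 11 were among the 16. Genes higher in total reads at 2 h (2) became 0 with each time alone, summed transcripts or the replicate block, and 1 with no filter.

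Leaving out each library in turn gave, in T>C reads, 2 to 6 genes higher at 2 h (2 without replicate 1 of either treatment, 3 without dCBP-30 replicate 3), 3 to 7 lower at 6 h (3 without dCBP-30 replicate 2, 4 without DMSO replicate 1 or 3), 10 to 19 lower at 24 h (10 without DMSO replicate 3) and 2 to 4 higher. In total reads it gave 0 to 2 higher at 2 h, 10 to 16 higher at 6 h and 9 to 17 higher at 24 h (9 without DMSO replicate 1). Over 210 results of named genes, 3672 of these values kept direction and side of the threshold, 86 lost and 22 gained a call and 0 changed sign, and under the other alternatives 1642 kept, 70 lost, 53 gained and 9 changed sign.

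Deviations of same-numbered libraries correlated at 0.03, -0.03 and -0.22 (2 h), -0.26, 0.07 and -0.19 (6 h), or 0.03, -0.01 and -0.05 (24 h). Those of libraries with different numbers correlated at -0.20 to 0.30. With 3 libraries per group, these values cannot decide whether the replicate numbers pair the libraries. With the replicate block, T>C calls were 1 down and 4 up (2 h), 7 and 0 (6 h), 15 and 3 (24 h), and total-read calls 0 and 0, 6 and 12, 16 and 13. Low T>C counts limit the precision for genes such as GTF2F2 and GTF2A1.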
